A study of Mus musculus with 8 samples.

Results

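GABA-A receptors are chloride channels built from 5 protein subunits and opened by the inhibitory transmitter GABA. The cerebellar levels of 7 of their subunit genes were measured here: Gabra2, Gabra3 and Gabra6 of the alpha class, Gabrb1 and Gabrb2 of the beta class, Gabrg1 of the gamma class, and Gabrd, which encodes the delta subunit. They were chosen by gene symbol, are 7 of 56691 genes counted and 7 of 19 subunit genes looked up, and all 7 passed the filter on low counts that left 22423 genes for testing. The study profiled cerebellar tissue by bulk RNA-seq in mice aged 6 months, 4 of them Atm-WT and 4 Atm-KO, with 1 library per mouse. Atm-KO mice were homozygous for the Atmtm1Bal allele on a mixed B6;129S4 background, and Atm-WT mice were wild-type littermates from crosses between heterozygotes. The labels name no treatment and no other allele. Libraries are named by the code in their title, taken here as that of the mouse, 2M, 7M, 13M and 32M for Atm-WT and 1M, 7F, 11M and 12M for Atm-KO.

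A receptor's subunits set where it sits on the cell and how it responds. In the cerebellum, granule cells are known for receptors with the alpha 6 subunit, and those that pair alpha 6 with delta lie outside synapses and carry a steady inhibitory current. Receptors with the beta 2 subunit are abundant in granule cells and other cerebellar neurons, Bergmann glia are known for alpha 2 and gamma 1, and alpha 3 is known from Golgi and unipolar brush cells and from neurons of the deep nuclei and brainstem.

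Some of the genes lie in clusters that are shared by several subunits. On GRCm39, Gabra6 (ENSMUSG00000020428, chr11:42197264-42211910, minus strand) and Gabrb2 (ENSMUSG00000007653, chr11:42310493-42523417, plus strand) are neighbours on chromosome 11. Gabrg1 (ENSMUSG00000001260, chr5:70906506-70999960, minus strand), Gabra2 (ENSMUSG00000000560, chr5:71114573-71253662, minus strand) and Gabrb1 (ENSMUSG00000029212, chr5:71815456-72319431, plus strand) share a stretch of chromosome 5. Gabrd (ENSMUSG00000029054, chr4:155469407-155482872, minus strand) lies alone on chromosome 4, and Gabra3 (ENSMUSG00000031343, chrX:71476275-71700723, minus strand) lies on the X chromosome. Exons of Gabra2, Gabrb1 and Gabrd overlap exons of antisense genes, and those 3 values may hold reads of their partners because how the counting treated strand is not given in the sources used here. Gabra3, Gabra6, Gabrb2 and Gabrg1 had no such overlap.

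The sequences just upstream of 3 of these genes are shown because their levels moved apart between libraries: Gabra6, of granule cells, and Gabrg1 and Gabra3, which varied most. Each run is the 250 bases before the first listed RefSeq start on GRCm38.p6, read 5′ to 3′ on the strand of the gene. Capitals mark the half-site TTGGC, searched on both strands and so also as GCCAA, of nuclear factor I, a family of transcription factors with a known role in granule cell maturation.
Gabra6 (chr11:42321073-42321322, minus strand): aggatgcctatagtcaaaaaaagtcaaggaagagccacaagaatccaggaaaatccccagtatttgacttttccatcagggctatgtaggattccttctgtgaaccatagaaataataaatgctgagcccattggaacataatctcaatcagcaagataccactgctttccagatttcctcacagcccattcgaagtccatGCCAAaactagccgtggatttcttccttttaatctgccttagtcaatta
Gabrg1 (chr5:70842618-70842867, minus strand): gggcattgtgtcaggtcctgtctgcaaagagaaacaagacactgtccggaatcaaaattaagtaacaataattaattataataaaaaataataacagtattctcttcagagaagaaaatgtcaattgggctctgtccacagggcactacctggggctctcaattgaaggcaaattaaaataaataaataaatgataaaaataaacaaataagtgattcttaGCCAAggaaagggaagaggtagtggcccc
Gabra3 (chrX:72656920-72657169, minus strand): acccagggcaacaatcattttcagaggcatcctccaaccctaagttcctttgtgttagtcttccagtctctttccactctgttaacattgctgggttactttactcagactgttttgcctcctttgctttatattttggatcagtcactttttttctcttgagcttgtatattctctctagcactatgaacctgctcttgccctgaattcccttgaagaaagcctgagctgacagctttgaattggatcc

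The Gabra6 run held 1 such half-site, beginning 49 bases before the start, and the Gabrg1 run held 1, beginning 29 bases before it. The Gabra3 run held none of these letters. The half-site was present at the first listed start of 4 of the 6 members in the promoter table (Gabra2, Gabra6, Gabrb2 and Gabrg1) and in 41.9% of all 27025 promoter windows of that length, so it is a common run of letters. TATAAA, the core of a TATA box, was also searched on both strands and was present in Gabrb2 on the strand of the gene, in Gabra3 only on the opposite strand (as TTTATA in the run above), and in 13% of all windows. E-boxes (CANNTG, the same on both strands) were present in Gabra2, Gabrb2 and Gabrg1 and in 66% of all windows. A match describes the letters and was not measured as a binding site.

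None of the 7 subunit genes differed between genotypes beyond the spread between mice. Counts are given as CPM, a share of the library's counts after TMM scaling, and genotypes were compared by the quasi-likelihood test of edgeR, with p-values adjusted across 22423 genes by the Benjamini-Hochberg method. Of the 7 genes, 0 passed an adjusted p of 0.05 (background 0.0178% of genes tested), 0 had an unadjusted p under 0.05 (background 20.2%), and 0 had genotypes that did not overlap (background 11.6%). DESeq2 (background 8.03%) and limma voom (background 0.0134%) also called 0 of the 7. The fold changes of 3 genes were above and of 4 below no change, with a median of −0.07 (log2, Atm-KO over Atm-WT) beside −0.06 over protein-coding genes of at least 1 CPM, a class that all 7 belong to, and −0.02 over all genes tested. The widest 95% interval was that of Gabra3, 0.59- to 1.46-fold, and the other 6 intervals lay between 0.72- and 1.32-fold. Each library was taken as 1 mouse from the number in its title, and the labels state neither this nor a litter or preparation day, so these tests measure the spread between mice with any such grouping inside it.

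**Figure D1:**
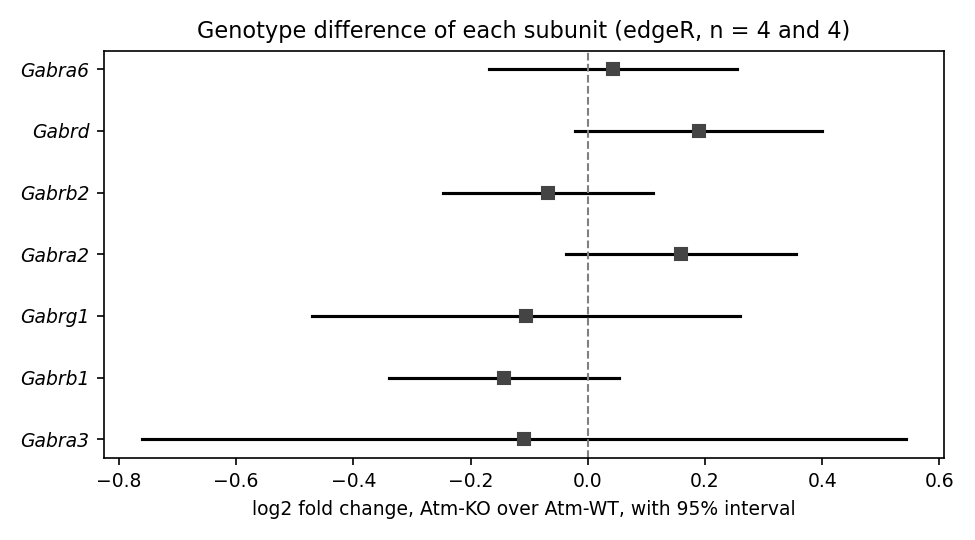
Genotype difference of each subunit gene (log2 fold change, Atm-KO over Atm-WT, edgeR, n = 4 and 4), with squares for estimates and lines for 95% intervals. All 7 intervals include 0, and that of Gabra3, from −0.76 to 0.54, is the widest.

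Gabra6, the alpha subunit that marks cerebellar granule cells, was the most abundant of the 7. It measured 535.2, 608.6, 676 and 549.5 CPM in Atm-WT mice 2M, 7M, 13M and 32M, and 598.6, 560.1, 576 and 707 CPM in Atm-KO mice 1M, 7F, 11M and 12M. The genotypes overlapped, with the highest value in Atm-KO 12M and the lowest in Atm-WT 2M. Means were 592 ± 64.3 CPM (SD, n = 4) in Atm-WT mice and 610.4 ± 66 CPM (SD, n = 4) in Atm-KO mice, and the log2 fold change was 0.04 (SE 0.10, adjusted p = 0.839). A rise of more than 1.19-fold or a fall below 0.89-fold lay outside its 95% interval. With each library left out in turn the log2 fold change ranged from −0.04, without Atm-KO 12M, to 0.13, without Atm-WT 13M.

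Gabrd, the delta subunit that joins alpha 6 in receptors outside synapses, measured 108, 99.2, 107 and 98.0 CPM in Atm-WT mice and 105, 108, 113 and 145 CPM in Atm-KO mice, in the same order of mice. Atm-KO 12M stood above the other 7 libraries, and the other 3 Atm-KO values lay at or near the Atm-WT range. The log2 fold change was 0.19 (SE 0.10, 95% interval −0.02 to 0.40, adjusted p = 0.296), and without Atm-KO 12M it was 0.07. Gabra6 and Gabrd both had their highest level in Atm-KO 12M, and over the 8 libraries their log2 CPM had a Pearson r of 0.63, given as a description since the genes share library and depth. The summed level of 13 granule cell markers ran from 6858 to 7863 CPM in Atm-WT mice and from 6944 to 9272 CPM in Atm-KO, with the highest sum also in Atm-KO 12M. In bulk tissue fewer cells of a type and less RNA per cell cannot be told apart.

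Gabrb2, the beta 2 subunit, was the steadiest gene of the set between mice. It measured 477, 564, 538 and 453 CPM in Atm-WT mice and 451.1, 481, 515 and 492 CPM in Atm-KO mice. The highest value was 1.25 times the lowest, and the Atm-KO values fell almost entirely inside the Atm-WT range. The log2 fold change was −0.07 (SE 0.08, 95% interval −0.25 to 0.11, adjusted p = 0.678).

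**Figure D2:**
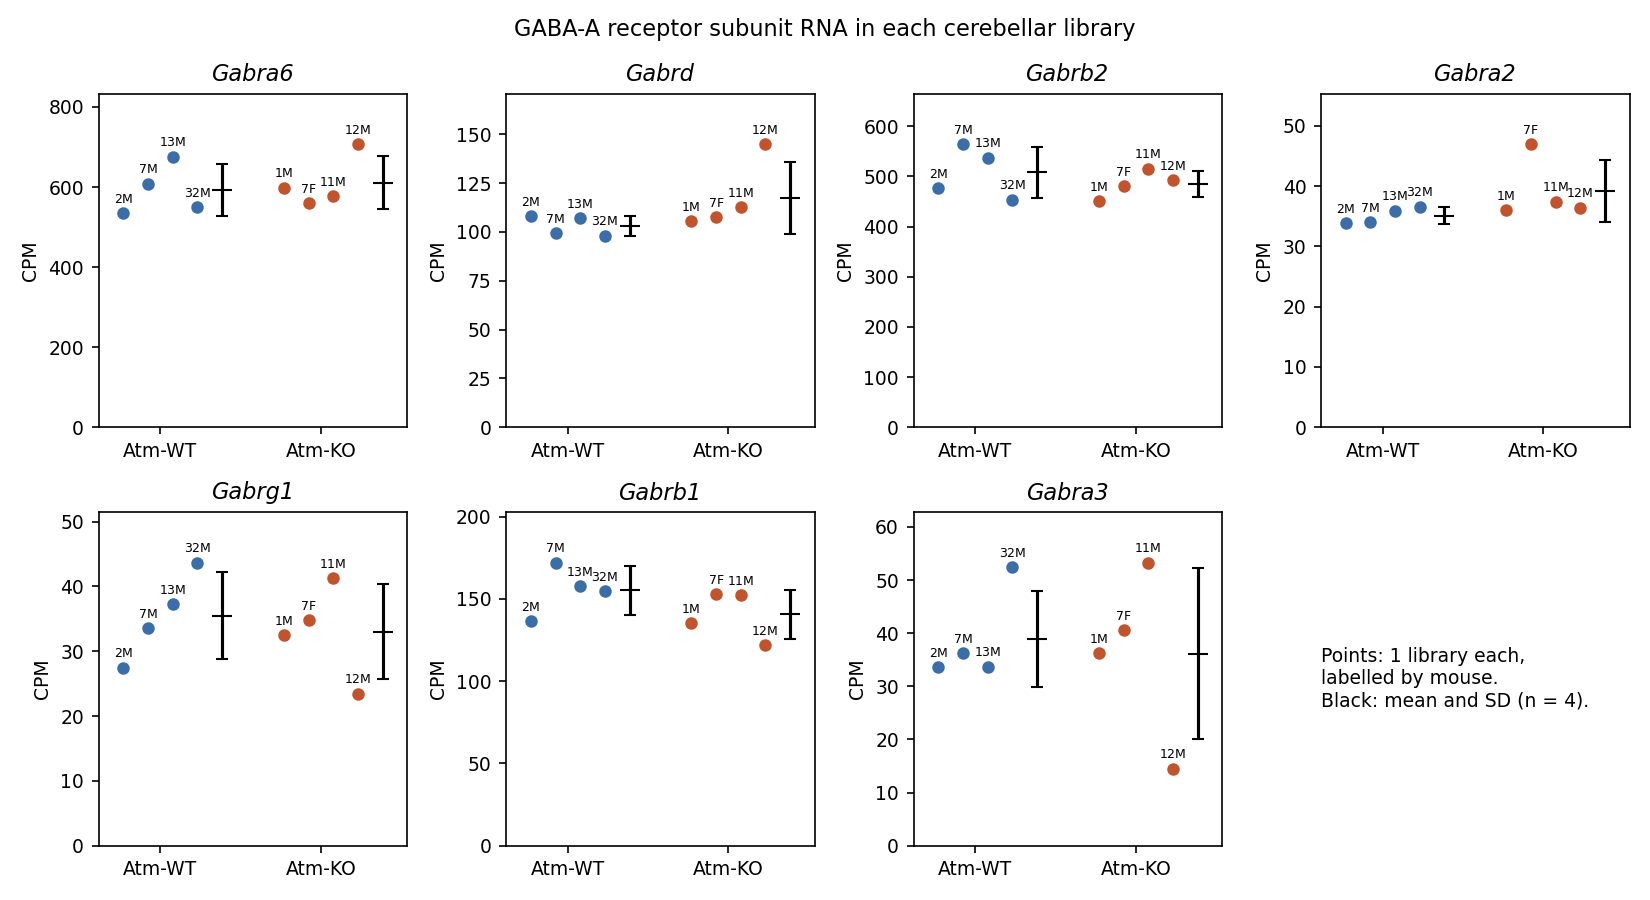
CPM of each subunit gene in each library, labelled by mouse, with the mean and SD of each genotype (n = 4) in black and every axis starting at 0. The genotypes overlap for all 7 genes, and Atm-KO 12M is highest for Gabra6 and Gabrd and lowest for Gabrb1, Gabrg1 and Gabra3.

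Among the subunits of Bergmann glia, neither Gabra2 nor Gabrg1 passed the test. Gabra2 measured 33.8, 34.0, 35.9 and 36.6 CPM in Atm-WT mice and 36.0, 46.9, 37.4 and 36.4 CPM in Atm-KO mice. The 7F library stood above all others, while the other 3 Atm-KO values spanned 36.0 to 37.4 CPM, at or just above the upper end of the Atm-WT range. The log2 fold change was 0.16 (SE 0.09, 95% interval −0.04 to 0.36, adjusted p = 0.339), and without 7F it was 0.08. The letter in the code is taken as sex, which the labels do not spell out, and 7F is the only library coded F, so sex is unbalanced between genotypes and in 7F cannot be told apart from the mouse.

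Gabrg1 measured 27.5, 33.6, 37.3 and 43.6 CPM in Atm-WT mice and 32.5, 34.8, 41.3 and 23.5 CPM in Atm-KO mice. Its highest value was 1.86 times its lowest, with the top in Atm-WT 32M and the bottom in Atm-KO 12M. The log2 fold change was −0.11 (SE 0.17, 95% interval −0.47 to 0.26, adjusted p = 0.760), and its sign turned without Atm-KO 12M (0.03), without Atm-WT 32M (0.01) and with a surrogate variable as covariate (0.19). The summed level of 14 Bergmann glia and astrocyte markers was 5672 to 6415 CPM in Atm-WT mice and 4999 to 5813 CPM in Atm-KO, and the list's median log2 level was lower in every Atm-KO library (−0.26 to −0.05) than in every Atm-WT library (0.01 to 0.03). Of the 14 markers, 6 had an unadjusted p under 0.05, all lower in Atm-KO, and 0 passed adjustment. Lower at that p were 8.48% of all genes tested and 12.9% of protein-coding genes of at least 1 CPM. Over the 8 libraries, the log2 CPM of Gabra2 had r of −0.09 with that median level (exact permutation p = 0.925, adjusted p = 0.925) and rho of −0.31 (exact permutation p = 0.462, adjusted p = 0.693). Gabrg1 had r of 0.39 (exact permutation p = 0.340, adjusted p = 0.498) and rho of 0.57 (exact permutation p = 0.151, adjusted p = 0.353). Without Atm-KO 1M and Atm-KO 12M both r were −0.31. The list's level did not overlap between genotypes, and within them r was 0.82 in the 4 Atm-WT libraries and 0.97 in the 4 Atm-KO libraries for Gabra2, and 0.64 and 0.49 for Gabrg1, given with no test because 4 libraries are few. A p of this size in 8 libraries does not show that the relation is absent.

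Gabrb1, the beta 1 subunit, measured 136, 172, 158 and 154 CPM in Atm-WT mice and 135, 153, 152 and 122 CPM in Atm-KO mice. Means were 155 ± 14.6 and 140.5 ± 14.9 CPM (SD, n = 4 each), and Atm-KO 12M was the lowest of all. The log2 fold change was −0.14 (SE 0.09, 95% interval −0.34 to 0.05, adjusted p = 0.391). It kept a sign below 0 in all 18 alternative settings, between −0.20 and −0.05, and passed the threshold in 0 of them.

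Gabra3, the alpha 3 subunit, varied most between mice. It measured 33.6, 36.2, 33.7 and 52.4 CPM in Atm-WT mice and 36.2, 40.5, 53.2 and 14.5 CPM in Atm-KO mice, so the highest and the lowest libraries were both Atm-KO and differed 3.66-fold. Atm-WT 32M and Atm-KO 11M stood together above the rest. The means of 39.0 ± 9.03 and 36.1 ± 16.1 CPM (SD, n = 4 each) were close beside this spread, and the log2 fold change was −0.11 (SE 0.30, 95% interval −0.76 to 0.54, adjusted p = 0.873). The fold change turned to 0.15 without Atm-KO 12M and to 0.33 without Atm-KO 12M and Atm-WT 32M together. It was 0.48 (adjusted p = 0.309) with a surrogate variable as covariate and −0.52 (adjusted p = 0.0463) with the level of deep nuclei and brainstem markers as covariate, so both its sign and its call depended on the libraries and covariates in the fit. Gabra3 is X-linked, and the 7F library, at 40.5 CPM, lay inside the range of the libraries coded M. The lowest count behind any value of the 7 genes was 981, that of Gabra3 in Atm-KO 12M, so counting error was small beside these differences.

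Some markers of other cells moved with Gabra3 in the same libraries, and others did not. Slc17a6, the vesicular glutamate transporter of deep nuclear and brainstem neurons, measured 74.3, 75.9, 73.6 and 116 CPM in Atm-WT mice and 76.4, 80.1, 107 and 4.32 CPM in Atm-KO mice, with the same 2 libraries on top and the same 1 at the bottom as Gabra3. Glra1, a glycine receptor subunit of hindbrain neurons, measured 0.43 CPM in Atm-KO 12M beside 5.55 to 11.6 CPM in the other 7 libraries. Both were singled out after their values were seen. Of the 11 tested markers of deep nuclei and brainstem, 6 were lowest in Atm-KO 12M, 4 in Atm-WT 13M and 2 in Atm-WT 2M, with ties counted in each, while 5 were highest in Atm-KO 11M and 2 each in Atm-KO 7F, Atm-WT 32M and Atm-WT 2M. Their median log2 fold change was 1.08, with 4 higher and 0 lower in Atm-KO at an unadjusted p under 0.05 and 0 called. Among all genes, 2622 of 22423 tested were higher at that p. All 13 listed markers summed to 166 to 236 CPM in Atm-WT mice and 55.4 to 238 CPM in Atm-KO, with the lowest sum in Atm-KO 12M, and 11 Hox genes of the hindbrain behind the cerebellum summed to at most 1.06 CPM in any library. Several tested markers were near or under 1 CPM in Atm-WT mice, and the list's median log2 level weighs them as much as abundant ones. In Atm-KO 11M that median was 2.30 beside 0.47 in Atm-WT 32M, while the sums were 238 and 236 CPM. The same median was used in the correlations below and as the covariate above. Markers of Golgi and unipolar brush cells, which also carry alpha 3, summed to 287 to 326 CPM in Atm-WT mice and 226 to 299 CPM in Atm-KO, with the lowest sum in Atm-KO 12M. Their median log2 level was lowest in Atm-KO 1M, at −0.33, beside −0.30 in Atm-KO 12M. Oligodendrocyte markers, at 4421 CPM in Atm-WT 32M and 2039 CPM in Atm-KO 12M, and forebrain markers, at 192 and 94.9 CPM, also had their highest and lowest sums in those libraries.

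**Figure D3:**
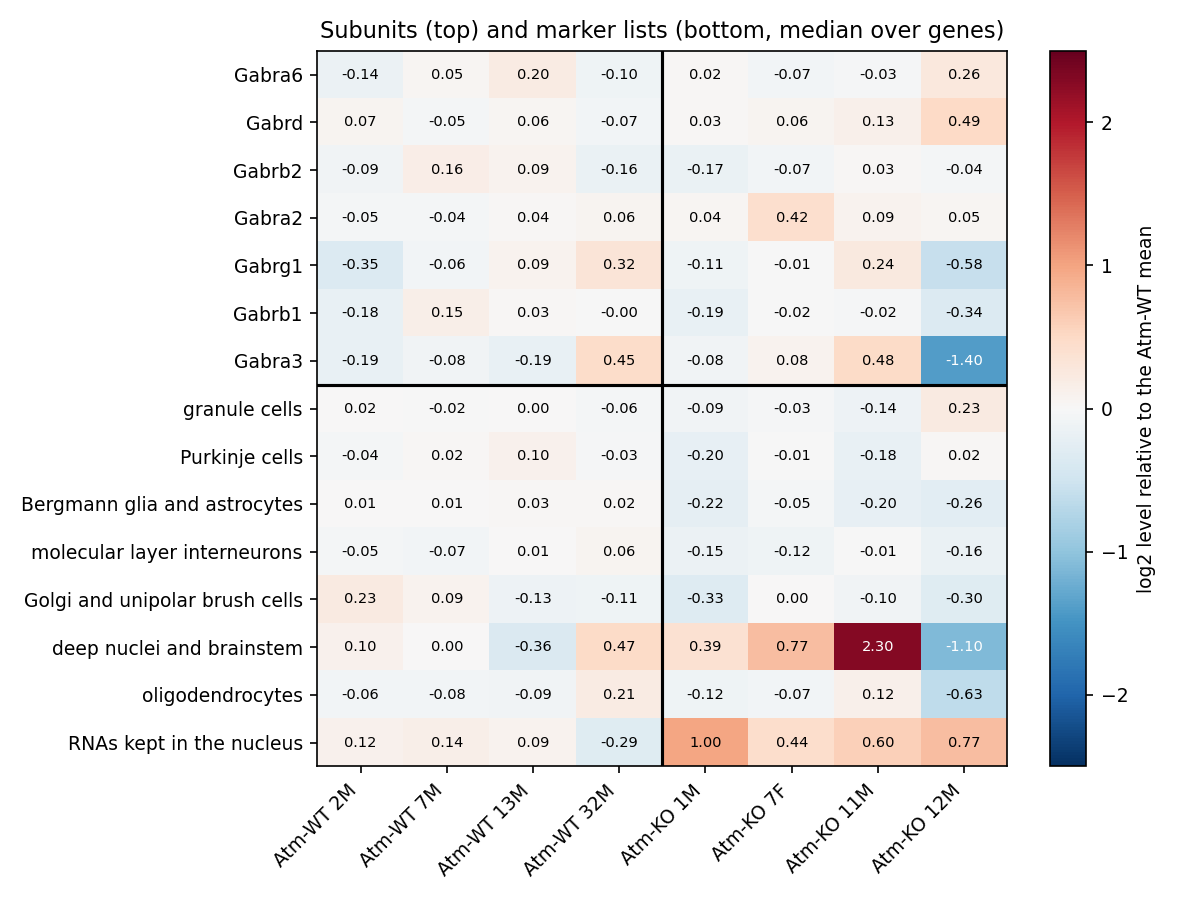
Log2 level of each subunit gene and median log2 level of each marker list in each library, relative to the Atm-WT mean, with red above and blue below 0. Atm-KO 12M stands apart, with the deep nuclei and brainstem list at −1.10 there and 2.30 in Atm-KO 11M. That median weighs markers near or under 1 CPM as much as abundant ones.

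Across the 8 libraries the log2 CPM of Gabra3 was lower where the granule cell markers were higher. Pearson's r was −0.94 (exact permutation p = 0.00717, adjusted p = 0.116) and Spearman's rho −0.93 (exact permutation p = 0.00223, adjusted p = 0.0469), two-sided, among 21 relations of the 7 genes with 3 marker lists that were chosen after the data were seen. With the deep nuclei and brainstem markers, r was 0.80 (exact permutation p = 0.0341, adjusted p = 0.179) and rho 0.90 (exact permutation p = 0.00456, adjusted p = 0.0479). Without Atm-KO 11M and Atm-KO 12M these r were −0.45 and 0.61, weaker than with them. Within the 4 Atm-WT libraries alone r was −0.96 with the granule cell markers and 0.83 with the deep nuclei and brainstem markers, and within the 4 Atm-KO libraries −0.97 and 0.94, each given as a value with no test because 4 libraries are few. For Gabrg1 and the granule cell markers r was −0.80 (exact permutation p = 0.0149, adjusted p = 0.116) and rho −0.64 (exact permutation p = 0.0962, adjusted p = 0.337), and r was −0.33 without the same 2 libraries. Gabrg1 and the deep nuclei and brainstem markers had r of 0.67 (exact permutation p = 0.0723, adjusted p = 0.230) and rho of 0.60 (exact permutation p = 0.132, adjusted p = 0.347). Without those libraries this r was 0.14, and it was 0.28 over Atm-WT libraries and 0.98 over Atm-KO libraries. Gabrd and the granule cell markers had r of 0.78 (exact permutation p = 0.0874, adjusted p = 0.230) and rho of 0.33 (exact permutation p = 0.428, adjusted p = 0.693). Without the same libraries this r was 0.34, and it was 0.90 over Atm-WT libraries and 0.91 over Atm-KO libraries. Gabra6 and the granule cell markers had r of 0.64 (exact permutation p = 0.0848, adjusted p = 0.230) and rho of 0.31 (exact permutation p = 0.462, adjusted p = 0.693). Without those libraries this r was 0.08, with 0.24 over Atm-WT and 0.89 over Atm-KO libraries. With the deep nuclei and brainstem markers Gabra6 had r of −0.61 (exact permutation p = 0.109, adjusted p = 0.255), with −0.84 over Atm-WT and −0.82 over Atm-KO libraries. Of the relations with the Bergmann glia and astrocyte markers, that of Gabrd had r of −0.70 (exact permutation p = 0.0166, adjusted p = 0.116) and rho of −0.62 (exact permutation p = 0.115, adjusted p = 0.345), and its r was −0.66 without Atm-KO 1M and Atm-KO 12M. Within the genotypes its r was 0.16 over Atm-WT libraries and −0.60 over Atm-KO libraries. With 4 libraries each, these values do not settle whether the relation holds within a genotype. That of Gabrb1 had r of 0.68 (exact permutation p = 0.0593, adjusted p = 0.230) and rho of 0.86 (exact permutation p = 0.0107, adjusted p = 0.0750), and its r was 0.11 without the same 2 libraries, so it rests on them, and within the genotypes r was 0.18 over Atm-WT libraries and 0.76 over Atm-KO libraries.

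**Figure D4:**
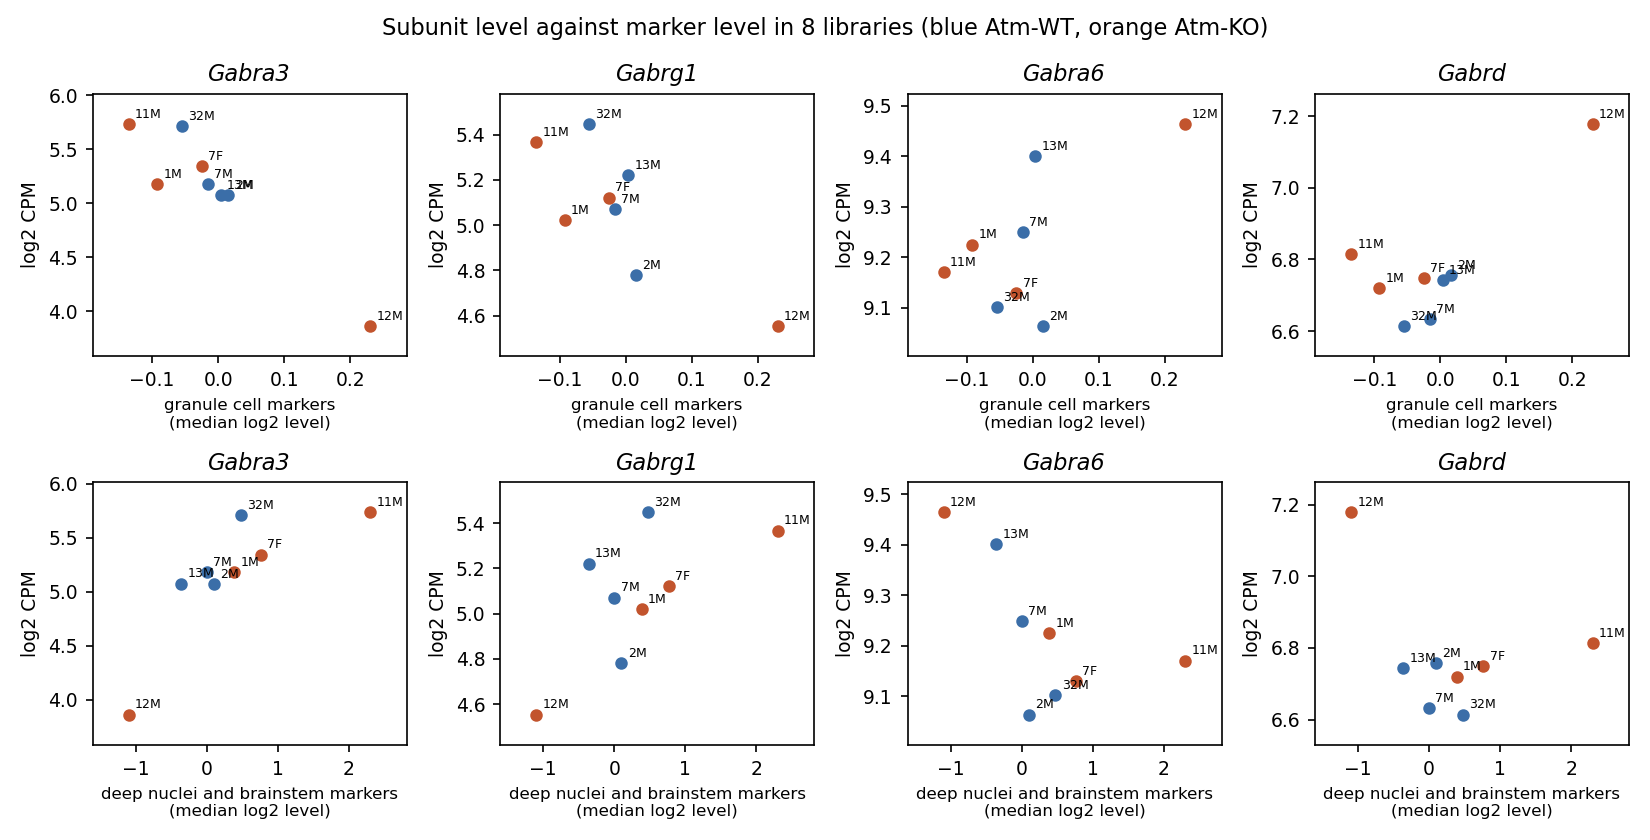
Log2 CPM of Gabra3, Gabrg1, Gabra6 and Gabrd against the median log2 level, relative to the Atm-WT mean, of granule cell markers (top row) and of deep nuclei and brainstem markers (bottom row), with 1 point per library labelled by mouse, blue for Atm-WT and orange for Atm-KO. Atm-KO 12M lies apart from the other 7 libraries in most panels, and Atm-KO 11M lies at the other end of both marker axes.

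The genes most like each member in pattern were found among 13274 protein-coding genes by Pearson r of log2 CPM over the 8 libraries, as a description of libraries that share depth and tissue. Chrm3 (r = 0.99), Tmem179 (0.99) and Zcchc12 (0.99) were most like Gabra3, and 459 genes had r over 0.9 with it. Prkar2b led for Gabrg1 (r = 0.99, with 163 genes over 0.9), and Gabrg1 itself had r of 0.89 with Gabra3. Mctp1 led for Gabra6 (r = 0.95, 12 genes over 0.9), Neurl4 for Gabrd (0.96, 22 genes), Braf for Gabrb2 (0.96, 32 genes) and Xpr1 for Gabrb1 (0.97, 82 genes). For Gabra2, Gm7072 led with r of 0.91, and it was the only gene over 0.9.

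Levels of different genes can be compared only per length, here as CPM per kilobase of all annotated exons. Gabra6 stood first at 237 ± 25.7 in Atm-WT mice and 244 ± 26.4 in Atm-KO (SD, n = 4 each), followed by Gabrb2 at 46.3 ± 4.69 and 44.1 ± 2.42, and Gabrd at 16.5 ± 0.84 and 18.8 ± 2.94. Gabrb1 came next at 9.19 ± 0.87 and 8.32 ± 0.88. The ranges of these 4 over the 8 libraries did not meet each other, while that of Gabrb1 (from 7.22) met that of Gabra3 (up to 7.71). Within every library, though, Gabrb1 was above Gabra3, and in Atm-KO 12M, which held the lowest value of both, they were 7.22 and 2.10. Gabra3 (5.64 ± 1.31 and 5.23 ± 2.33), Gabra2 (3.91 ± 0.15 and 4.37 ± 0.58) and Gabrg1 (3.49 ± 0.67 and 3.25 ± 0.72) had ranges that overlapped each other, so these data do not separate the order among the last 3.

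The 7 genes held 62.9% to 70.5% of the per-length sum over the 19 subunit genes, and Gabra6 alone held 47.7% ± 1.54 in Atm-WT mice and 49.4% ± 3.59 in Atm-KO (SD, n = 4 each). The order depends on the length used. With coding length Gabrb1 passed Gabrd in the means of both genotypes, while their ranges over libraries overlapped (85.7 to 121 and 72.7 to 108). Gabra2 passed Gabra3 in the Atm-KO mean (29.0 against 24.5) and not in the Atm-WT mean (25.9 against 26.4), and the share of Gabra6 was 20.3% in Atm-WT mice and 21.6% in Atm-KO. Gabra6 stayed first with exon, longest-transcript and coding length.

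**Figure D5:**
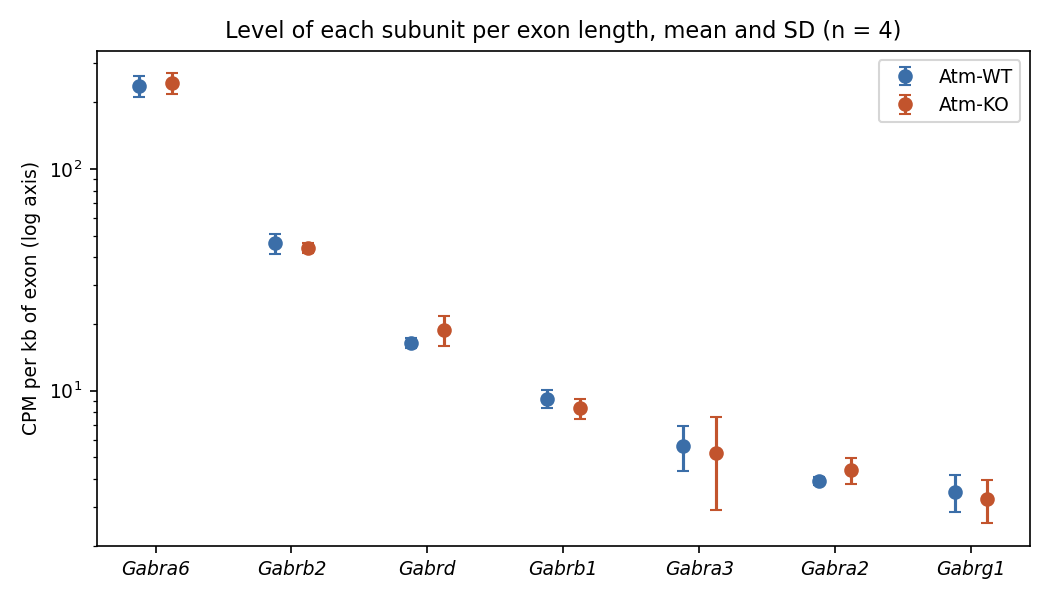
CPM per kilobase of exon for each subunit gene on a log axis, as mean and SD of 4 libraries per genotype. Gabra6 is first at 237 and 244 and Gabrg1 last at 3.49 and 3.25, the last 3 genes overlap, and the ranges of Gabrb1 and Gabra3 over all libraries meet.

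The other 12 subunit genes, of which 10 were tested, had 0 calls and 0 unadjusted p under 0.05, with 2 fold changes above and 8 below 0 and a median of −0.07 (log2). The genes that assemble, move and anchor these receptors at synapses held 1 called gene. Of 28 tested, 6 had an unadjusted p under 0.05, all lower (21.4%, beside 8.48% lower at that p among all genes and 12.9% among protein-coding genes of at least 1 CPM), 23 (82.1%, beside 65.9% of those protein-coding genes) had a fold change below 0, and 1 passed adjustment, with a median of −0.08 beside −0.06 over those protein-coding genes. The gene called was Insyn1, which encodes a protein of inhibitory postsynapses that binds the dystrophin complex. It measured 125, 122, 119.8 and 130.2 CPM in Atm-WT mice and 85.8, 94.0, 83.9 and 84.9 CPM in Atm-KO mice. Every Atm-KO value lay below every Atm-WT value, and the log2 fold change was −0.51 (SE 0.06, adjusted p = 0.0279 by the same edgeR test).

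Insyn1 (chr9:58395367-58409884, GRCm39) lies 4.95 Mb from Atm, the edited gene, and strain sequence kept around the edited allele cannot be told apart from the genotype. The call of Insyn1 was lost without Atm-WT 2M (adjusted p = 0.135), Atm-WT 7M (0.0793), Atm-KO 1M (0.164) or Atm-KO 11M (0.126), while its fold change stayed between −0.53 and −0.48 with each library left out. Clptm1, which holds back receptor assembly in the endoplasmic reticulum, was the other of 2 genes among 28 without overlap (background 11.6%), with means of 142 CPM in Atm-WT mice and 127 CPM in Atm-KO mice (log2 fold change −0.16, adjusted p = 0.181), and was named after its values were seen.

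On the side of the transmitter, 0 of 9 genes for the synthesis, packaging, uptake and breakdown of GABA passed adjustment and 3 (33.3%, beside 8.48% lower at that p among all genes and 12.9% among protein-coding genes of at least 1 CPM) had an unadjusted p under 0.05, all lower. Slc32a1, which loads GABA into vesicles, measured 126, 112, 112 and 125 CPM in Atm-WT mice and 86.7, 105, 102 and 95.1 CPM in Atm-KO mice. The genotypes did not overlap, and its log2 fold change of −0.29 (SE 0.08) did not pass adjustment (adjusted p = 0.105). Molecular layer interneurons release GABA, and their 8 markers summed to 781 to 827 CPM in Atm-WT mice. For Atm-KO mice the sum was 694 to 733 CPM, also without overlap. By median log2 level the genotypes did overlap, since Atm-KO 11M, at −0.01, lay inside the Atm-WT range of −0.07 to 0.06. The other Atm-KO libraries lay below that range, down to −0.16. Of these markers 0 were called and 1 was lower at an unadjusted p under 0.05. Their part in the values of these genes was not tested. Abat, which breaks GABA down, had a log2 fold change of −0.21 (adjusted p = 0.247) and was named after its values were seen.

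Of 10 genes of chloride and bicarbonate balance, 0 passed adjustment, 2 had an unadjusted p under 0.05 (background 20.2%) and 1 had no overlap (background 11.6%). Clcn2, a chloride channel, measured 31.5, 34.8, 28.8 and 30.6 CPM in Atm-WT mice and 40.8, 35.3, 37.9 and 42.5 CPM in Atm-KO mice, without overlap, with a log2 fold change of 0.31 (SE 0.08, adjusted p = 0.105). Stk39, a kinase of chloride cotransporters named after its values were seen, had an unadjusted p under 0.05 and a log2 fold change of −0.20 (adjusted p = 0.199). The 8 genes of GABA-B receptors and their partners and the 6 tested genes of endozepines and neurosteroid synthesis had 0 calls and 0 unadjusted p under 0.05, with medians of 0.00 and −0.07 (log2).

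Atm itself measured 59.0 to 80.0 CPM in Atm-WT mice and 41.1 to 51.1 CPM in Atm-KO, lower in 4 of 4 Atm-KO mice (log2 fold change −0.66, adjusted p = 0.0775). Of the cerebellar markers, 13 of 13 granule cell and 12 of 12 Purkinje cell markers passed the filter on low counts. So did 7 of 7 choroid plexus and 8 of 10 forebrain markers, so passing the filter does not identify the tissue. RNAs kept in the nucleus were higher in every Atm-KO library (median log2 level 0.44 to 1.0) than in every Atm-WT library (−0.29 to 0.14). Of these RNAs 8 of 10 had an unadjusted p under 0.05 (background 20.2%) and 1 passed adjustment (background 0.0178%), and their part in the values above was not tested. Total counts were 76912738 to 88030300 per library in Atm-WT mice and 65967130 to 78431478 in Atm-KO.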

How the data were processed

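RNA of frozen cerebellum from 8 mice was sequenced by Novogene. The authors checked reads with FastQC 0.11.9, used STAR for alignment to GRCm39 and featureCounts for counting, and deposited raw counts per gene. The paper names GENCODE Release 28, and the strand and pair settings are not given in the sources used here. Between 1 and 50, even counts outnumbered odd ones, and whether a count is a read or a fragment was not settled. Identifiers were matched without version to GENCODE vM39 (56017 of 56691, 98.8%). Promoter sequences came from RefSeq (GRCm38.p6), where 6 of the 7 genes were found.

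The genotype test was that of edgeR 4.0.16, run in R 4.3.3 (filterByExpr, TMM, glmQLFit, glmQLFTest, Benjamini-Hochberg adjustment, no covariate), first tested on simulated data. Log2 CPM used a prior count of 2. Totals of 65967130 counts or more gave every member at least 981 counts per library, and these figures cover counting error only. Alternatives were DESeq2 1.42.0, limma voom 3.58.1, other scalings and filters, a surrogate variable (sva 3.50.0), and libraries left out. Correlations used two-sided exact permutation tests.

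The members and gene lists were chosen with earlier results of these data known. Beyond the members, the genes named were those called in a pathway list, the largest change without overlap in each direction per list, and the most alike genes. Abat, Clptm1, Stk39, Slc17a6 and Glra1 lie outside this rule and were chosen after their values were seen. Other subunits were counted and not named, and a value of 1 list gene is not reported here. No per-sample column was left out.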

Additional observations from a re-analysis of the deposited data

Results flagged for a closer look

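A library was marked when its distance to the nearest other library of its genotype took up more of the range of the 4 than Dixon's critical value allows. Of 50 groups of 4 looked at, 5 were marked, and chance gives about 2.5. Gabra2 was high in Atm-KO 7F, at 46.9 CPM beside 36.0 to 37.4 CPM in the other 3 Atm-KO libraries. Gabra3 was high in Atm-WT 32M, at 52.4 CPM beside 33.6 to 36.2 CPM in the other 3 Atm-WT libraries. Atm-WT 32M was also high for the oligodendrocyte markers, with a median log2 level of 0.21 beside −0.09 to −0.06, and low for RNAs kept in the nucleus, at −0.29 beside 0.09 to 0.14. Atm-KO 12M had the lowest total, 65967130 counts, beside 76598492 to 78431478 in the other Atm-KO libraries. The low Gabra3 value of Atm-KO 12M, 14.5 CPM, was not marked, since Atm-KO 11M widened that group's range.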

How the results depend on the processing

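Over 18 alternative settings each, Gabra2 (0.08 to 0.25), Gabrd (0.03 to 0.25), Gabrb1 (−0.20 to −0.05) and Gabrb2 (−0.13 to −0.02) kept the sign of their log2 fold change and never passed the threshold. Gabra3, Gabra6 and Gabrg1 changed sign. With a surrogate variable as covariate their values were 0.48, −0.11 and 0.19. Without Atm-WT 32M and Atm-KO 12M together, a setting added after the data were seen, they were 0.33, −0.07 and 0.14. With single libraries left out they ranged from −0.35 to 0.15, from −0.04 to 0.13 and from −0.22 to 0.03. With the deep nuclei and brainstem markers as covariate, also added afterwards, Gabra3 was −0.52 and passed the threshold (adjusted p = 0.0463), the only such case among the 7 genes. The number of genes called among all tested was 4, and moved to 1609 with DESeq2, 591 with no filter on low counts, 1612 with that covariate and 24 without both libraries. With single libraries left out it ranged from 1 (2M, 1M or 11M) to 27 (13M), with 2 without 7M and 10 without 32M. The cause was not tested. Other scalings moved the median of all genes by less than 0.1. Insyn1 passed the threshold in 13 of 18 settings. No paired analysis was made because the labels state no litter or pair. The number shared by 7M and 7F was not taken as a pair.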
